A study of Mus musculus with 7 samples.

Results

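A set of 10 genes that take docosahexaenoic acid (DHA) and very long chain polyunsaturated fatty acids into the membranes of the retina were followed in SCA7 mice. They were chosen by name for their step in this pathway: *Mfsd2a* and *Adipor1* for uptake and retention, *Acsl6* for activation, *Fads1* and *Fads2* for desaturation, *Elovl2*, *Elovl4* and *Elovl5* for elongation, and *Agpat3* and *Lpcat1* for incorporation into phospholipids. All 10 were found among the 52550 genes of the count table, and all 10 were among the 20128 genes with enough counts to be tested. The libraries are total RNA-seq of whole retina from C57BL/6J mice of 12.5 weeks, with 4 WT mice and 3 SCA7 KI mice homozygous for the knock-in, 2 retinas per mouse and no treatment in either group. In the knock-in a CAG expansion lies in the mouse *Atxn7* gene under its own promoter, so mutant ATXN7 is made wherever the gene is active and no Cre or transgene is involved.

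DHA is the most unsaturated of the common membrane fatty acids, and the discs of photoreceptor outer segments are among the membranes richest in it. It reaches the retina from the blood or is made there from shorter precursors by alternating desaturases (FADS enzymes) and elongases (ELOVL enzymes), is bound to coenzyme A by an acyl-CoA synthetase, and is placed in phospholipids by acyltransferases. ELOVL4 further lengthens such fatty acids to the very long chains that are a feature of photoreceptor discs, and mutations in its gene cause a dominant macular dystrophy.

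Total counts lay between 56497675 and 96635832 per library. *Atxn7*, the targeted gene, had 33.7 to 43.7 CPM (TMM-normalized counts scaled to a common library size) in WT and 34.2 to 39.9 CPM in SCA7, with a log2 fold change of -0.06 (adjusted p = 0.64, edgeR), and since a repeat knock-in need not alter the level this is no strong check of the labels. Rods and cones, the defining cells of retina, were marked in every library. All 10 rod genes followed were downregulated in SCA7, with a median log2 fold change of -1.14, as were 9 of 10 cone genes, with a median of -1.57 over the cone list. The tenth, *Gnb3*, was upregulated (log2 fold change 1.06, adjusted p = 5.5e-07, edgeR). No gene of either list was at 0 in a library. Of the 8 Müller glia genes 1 was lower (*Glul*, -0.36) and 4 were higher by the edgeR test, without reaching an FC of 0.7 or 1.3 (12.5% and 50%, beside 14.2% of all genes in each direction). Of the genes of reactive glia 9 of 10 were upregulated (*Gfap*, 2.30), and of the microglial genes 12 of 12 (90% and 100%, beside 7.47% of all genes). Other neurons were followed too. Of 7 bipolar genes 5 were lower (71.4%, beside 14.2% of all genes), 2 of them downregulated (28.6%, beside 7.91%), with a median of -0.43. Of 7 amacrine genes 2 were lower and of 7 ganglion cell genes 1 (28.6% and 14.3%, beside 14.2%). No gene of these neuron lists was higher by the edgeR test. In whole tissue, fewer cells of a type and less RNA per cell cannot be told apart.

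The sequences before the start sites of 3 genes are given because these genes moved in different directions: *Adipor1* and *Elovl4* were lower in SCA7, and *Elovl2* was higher. Each is the 250 bases before a start site in RefSeq (GRCm38.p6), the one nearest to the 5′ end of the gene in GENCODE, read 5′ to 3′ on the strand of the gene, with CG dinucleotides in capitals. They lie at chr1:134415128-134415377 on the plus strand, chr9:83806306-83806555 on the minus strand and chr13:41220404-41220653 on the minus strand. Annotated exons of the gene cover none of the first 2 windows and 2 bases of the *Elovl2* window.
Adipor1: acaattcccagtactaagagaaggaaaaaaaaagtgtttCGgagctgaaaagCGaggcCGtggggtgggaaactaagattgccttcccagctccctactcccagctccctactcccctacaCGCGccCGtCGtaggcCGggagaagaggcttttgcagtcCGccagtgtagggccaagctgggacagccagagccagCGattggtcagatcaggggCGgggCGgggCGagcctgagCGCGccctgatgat
Elovl4: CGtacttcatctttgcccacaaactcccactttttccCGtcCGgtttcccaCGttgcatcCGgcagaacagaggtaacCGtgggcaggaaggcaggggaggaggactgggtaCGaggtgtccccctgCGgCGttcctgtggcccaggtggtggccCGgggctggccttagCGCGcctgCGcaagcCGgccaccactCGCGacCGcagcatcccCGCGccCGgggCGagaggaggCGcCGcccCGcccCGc
Elovl2: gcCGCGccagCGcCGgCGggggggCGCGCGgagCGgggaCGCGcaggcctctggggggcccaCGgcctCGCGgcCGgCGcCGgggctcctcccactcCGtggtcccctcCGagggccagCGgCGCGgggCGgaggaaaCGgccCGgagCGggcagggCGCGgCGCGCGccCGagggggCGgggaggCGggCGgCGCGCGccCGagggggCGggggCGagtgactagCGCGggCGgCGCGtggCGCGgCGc
The *Elovl2* window holds 49 CG dinucleotides and is 87.2% G and C. Only 0.146% of the 32851 windows of this length in RefSeq hold as many, and the median window holds 6 and is 52.4% G and C. The *Adipor1* window holds 15 and the *Elovl4* window 25. *Fads1* had no window in the table, and the other 8 genes hold between 3 and 25.

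Short motif cores were searched on both strands in 1 window for each of 9 genes, and the other start sites that RefSeq gives for *Adipor1*, *Elovl2* and *Acsl6* were not searched. TAATCC, the core bound by the photoreceptor factor CRX, was found in *Lpcat1* alone, against 6.25% of all windows. Its place is shown because it is the only such core in the set, at chr13:73466989-73467018 on the plus strand, with the core in capitals as read on its opposite strand.
Lpcat1: atggcgactgatGGATTAcaatggttaggg
This core begins 230 bases before the start site. TGCTGA, a core of the rod factor NRL, was in none of the 9 (16.1% of all windows). CCAAT was in 4, those of *Mfsd2a*, *Adipor1*, *Acsl6* and *Elovl5* (33.8% of all windows). The E-box CACGTG was in *Elovl5* (6.02%), and the sterol regulatory element TCACNCCAC was in none (1.05%). No match overlapped another, and a match is a description of the window. Annotated exons cover 243 bases of the *Fads2* window and 159 of the *Agpat3* window, so these lie largely within the transcribed part of the gene as GENCODE gives it.

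To ask which steps of the pathway differed between the genotypes, counts were scaled by TMM and the genotypes were set against each other in edgeR (quasi-likelihood, robust), with Benjamini-Hochberg adjustment across the 20128 genes. The terms downregulated and upregulated are kept for genes whose adjusted p is below 0.05 and whose FC, SCA7 over WT, is below 0.7 or above 1.3, respectively. Of the 10 lipid genes 2 were downregulated, *Adipor1* and *Agpat3*, beside 7.91% of all genes tested. Another 2 were upregulated, *Elovl2* and *Fads2*, beside 7.47%. Without the limits on FC, 3 were lower and 2 higher, beside 14.2% in each direction, and the gene added was *Elovl4*. The remaining 5 did not pass the test. In 4 genes every SCA7 library was below every WT library, beside 18.3% of all genes, and in 2 every SCA7 library was above, beside 19.3%. The median log2 fold change was -0.07 over the 10 genes and -0.02 over all genes tested.

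**Figure D1:**
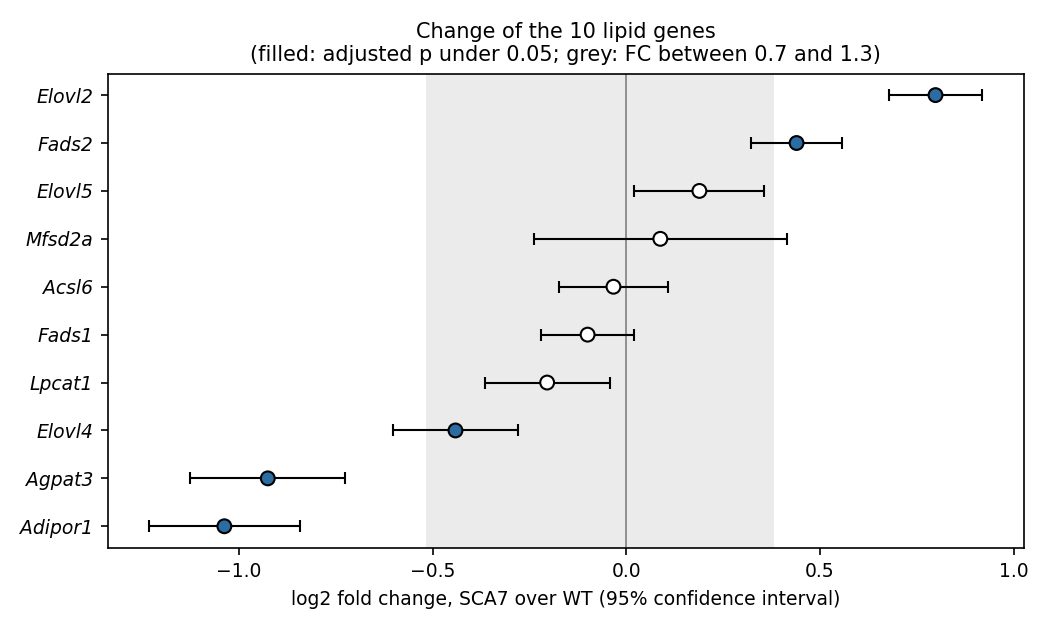
Log2 fold change (SCA7 over WT, x axis) of the 10 lipid genes with its 95% confidence interval from the edgeR fit of 4 WT and 3 SCA7 libraries. Filled points have an adjusted p under 0.05 and the grey band spans FC 0.7 to 1.3, and the points run from -1.04 for *Adipor1* to 0.80 for *Elovl2*.

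*Adipor1* encodes an adiponectin receptor that the retina needs to keep its DHA, and mice without it lose photoreceptors. The WT libraries had 795, 800, 877 and 794 CPM, and the SCA7 libraries 350, 393 and 451 CPM. All 3 SCA7 mice lay far below the lowest WT mouse, and WT replicate 3 stood above the other WT mice. The means were 817 ± 40.5 CPM (SD, n = 4) and 398 ± 50.8 CPM (SD, n = 3), and the log2 fold change was -1.04 (standard error 0.09, 95% confidence interval -1.23 to -0.84, adjusted p = 5.4e-06, edgeR). *Adipor1* lies on chromosome 1 from 134415378 to 134433351 of GRCm38 (plus strand). *Adipor2*, the related receptor, had 74.5 ± 2.69 CPM in WT and 69.5 ± 1.77 CPM in SCA7 (log2 fold change -0.10, adjusted p = 0.20, edgeR).

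*Mfsd2a* encodes a transporter of DHA bound to lysophosphatidylcholine, known from the endothelium of the blood-brain barrier and from the retinal pigment epithelium. It was the lowest of the 10, with 142 to 310 counts per library. Its levels were 2.66, 3.30, 2.66 and 3.58 CPM in WT and 3.46, 3.63 and 2.68 CPM in SCA7, so the genotypes overlapped over nearly their whole range. The log2 fold change was 0.09 with a 95% confidence interval of -0.24 to 0.41 (adjusted p = 0.70, edgeR), an interval that holds a decrease to an FC of 0.847 and a rise to an FC of 1.33. Markers of both cell types moved in these libraries. Of the 10 pigment epithelium genes 4 were downregulated (40%, beside 7.91% of all genes) and 1 was upregulated (10%, beside 7.47%), with a summed level of 81.9 to 164 CPM in WT and 23.3 to 56.9 CPM in SCA7, and *Rpe65* had a log2 fold change of -2.29 (adjusted p = 0.016, edgeR). Of the 10 genes of endothelium and pericytes 2 were lower and 5 higher by the edgeR test (20% and 50%, beside 14.2% of all genes in each direction), 2 of the 5 upregulated. These genes had a median of 0.20 on the log2 scale (SCA7 over WT), and their summed level was 339 to 391 CPM in WT and 430 to 480 CPM in SCA7, while *Cldn5*, named as an example of the list, went the other way at -0.48 (adjusted p = 0.011, edgeR). Here too no gene was at 0 in a library. Their part in the level of *Mfsd2a* was not tested.

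*Acsl6* encodes the acyl-CoA synthetase that prefers DHA. Its levels were 308, 336, 301 and 327 CPM in WT and 320, 310 and 302 CPM in SCA7. Every SCA7 value fell within the range of the WT values. The log2 fold change was -0.03 with a 95% confidence interval of -0.17 to 0.11 (adjusted p = 0.74, edgeR). An antisense gene, *Gm12224*, covers 2.04% of the exon bases of *Acsl6*, and the libraries are stranded but the strand setting of the counting is not given in the sources used here.

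*Fads2* encodes the desaturase that opens the synthesis of polyunsaturated fatty acids, and *Fads1* the one that acts later. The genes lie 81.1 kb apart on chromosome 19 with no protein-coding gene between them, *Fads2* from 10062765 to 10101746 (minus strand) and *Fads1* from 10182888 to 10196877 (plus strand). *Fads2* had 32.7, 33.4, 33.9 and 33.5 CPM in WT and 46.7, 44.5 and 44.7 CPM in SCA7. The SCA7 mice were all above the WT mice, and the spread within each genotype was small. The means of 33.4 ± 0.513 CPM (SD, n = 4) and 45.3 ± 1.21 CPM (SD, n = 3) gave a log2 fold change of 0.44 (standard error 0.05, 95% confidence interval 0.32 to 0.56, adjusted p = 9.1e-05, edgeR). The lower end of this interval is an FC of 1.25, below the limit of 1.3.

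*Fads1* had 61.7, 65.1, 60.8 and 64.3 CPM in WT and 60.1, 56.6 and 59.6 CPM in SCA7. The SCA7 libraries were all below the WT libraries, the closest by under 1 CPM. The log2 fold change of -0.10 (standard error 0.06) did not pass the test (adjusted p = 0.20, edgeR). The neighbouring desaturases therefore had values of opposite sign, and the counts of *Fads2* were 51.3% to 55.8% of those of *Fads1* in WT and 75.0% to 78.7% in SCA7.

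**Figure D2:**
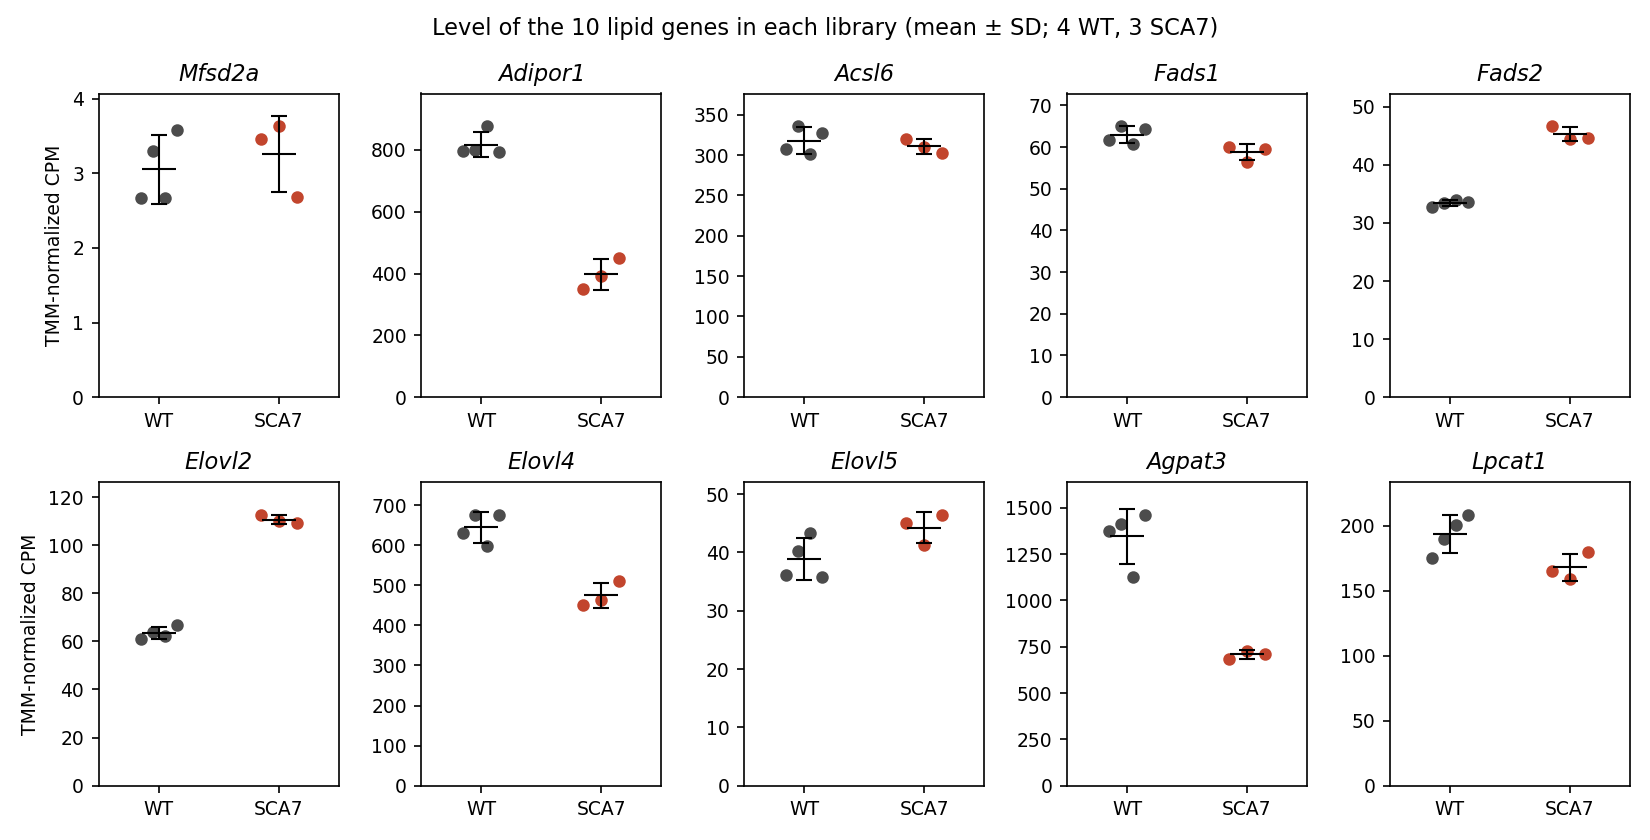
TMM-normalized CPM (y axis, from 0) of the 10 lipid genes in each of the 4 WT and 3 SCA7 libraries, with a point per library and bars for mean ± SD. *Adipor1*, *Agpat3*, *Elovl4* and, by a small margin, *Fads1* sit lower in SCA7 without overlap, *Elovl2* and *Fads2* sit higher without overlap, and *Mfsd2a*, *Acsl6*, *Elovl5* and *Lpcat1* overlap.

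The 3 elongase genes of the set did not move together. *Elovl2* encodes the elongase that carries the precursors of DHA, and had 61.0, 64.1, 62.4 and 66.9 CPM in WT and 113, 110 and 109 CPM in SCA7. All SCA7 mice were well above all WT mice, and the SCA7 mice were close to each other. The WT mean was 63.6 ± 2.52 CPM (SD, n = 4) and the SCA7 mean 111 ± 1.89 CPM (SD, n = 3), and the log2 fold change was 0.80 (standard error 0.06, 95% confidence interval 0.68 to 0.92, adjusted p = 1.0e-06, edgeR), or an FC of 1.74. *Elovl2* lies on chromosome 13 from 41182381 to 41220405 (minus strand).

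*Elovl4*, for the very long chain elongase of photoreceptors, had 629, 675, 597 and 676 CPM in WT and 450, 464 and 510 CPM in SCA7. No SCA7 mouse reached the lowest WT mouse. The log2 fold change was -0.44 (standard error 0.07, 95% confidence interval -0.60 to -0.28, adjusted p = 9.3e-04, edgeR), and the FC of 0.736 lay above the limit of 0.7, so that *Elovl4* was lower but not counted as downregulated. *Elovl5*, whose product acts on shorter precursors, had 36.2, 40.2, 43.3 and 35.7 CPM in WT and 45.0, 41.3 and 46.5 CPM in SCA7. WT replicate 3 lay among the SCA7 values and made the genotypes overlap. Its log2 fold change was 0.19 (standard error 0.08), short of the threshold (adjusted p = 0.088, edgeR), and without WT replicate 3 it was 0.24 (adjusted p = 0.0091, edgeR).

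To see how the elongase family was made up, levels were set per kb of transcript, and each of the 7 elongase genes was given as a share of their sum in each library. *Elovl4* held 77.5%, 77.2%, 74.3% and 77.7% in WT and 64.4%, 67.2% and 67.1% in SCA7. It was the main elongase in every library, with a smaller share in every SCA7 library. *Elovl2* went from 3.75% ± 0.0974 (SD, n = 4) to 7.66% ± 0.480 (SD, n = 3), and *Elovl5* from 13.3% ± 1.55 to 17.7% ± 0.699. With the union of exons as length, *Elovl2* went from 6.40% to 13.3%, *Elovl5* from 4.42% to 6.01% and *Elovl4* from 84.9% to 74.8%, so the direction held for all 3 while the order of *Elovl2* and *Elovl5* turned.

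**Figure D3:**
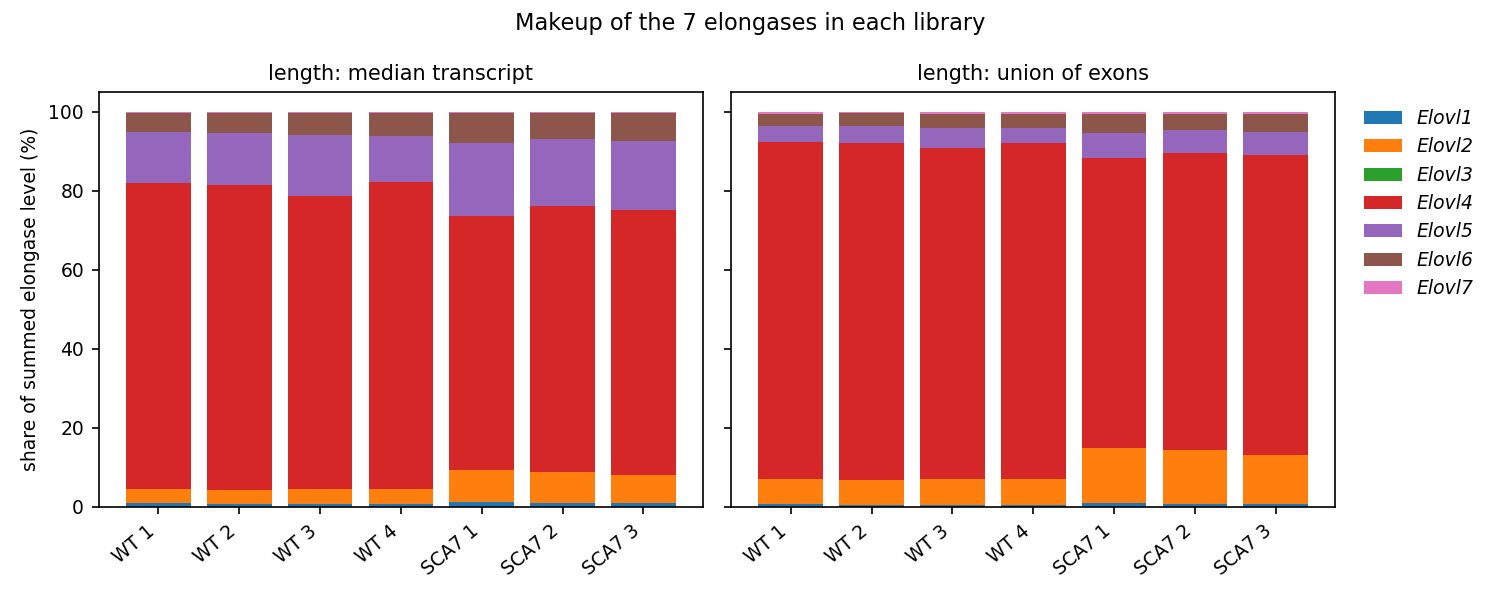
Share (y axis, percent) of each of the 7 elongase genes in their summed level per kb, one bar per library, with the median transcript length on the left and the union of exons on the right. The *Elovl4* block is shorter in the 3 SCA7 bars (64.4% to 67.2% on the left) than in the 4 WT bars (74.3% to 77.7%).

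*Agpat3* encodes an acyltransferase that places DHA in phosphatidic acid, and mice without it lack most retinal DHA. Its levels were 1377, 1412, 1130 and 1464 CPM in WT and 683, 729 and 714 CPM in SCA7. The SCA7 mice were all far below the lowest WT mouse, and WT replicate 3 was the lowest of the WT mice. The means of 1346 ± 149 CPM (SD, n = 4) and 708 ± 23.6 CPM (SD, n = 3) gave a log2 fold change of -0.93 (standard error 0.09, 95% confidence interval -1.13 to -0.73, adjusted p = 1.7e-05, edgeR). The gene lies on chromosome 10 from 78269178 to 78352489 (minus strand), and *Gm40709* on the opposite strand covers 0.205% of its exon bases.

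*Lpcat1* encodes an acyltransferase of lysophosphatidylcholine whose loss causes photoreceptor degeneration in mice. It had 175, 190, 201 and 209 CPM in WT and 165, 159 and 180 CPM in SCA7. The lowest WT mouse lay below the highest SCA7 mouse. The log2 fold change was -0.20 (standard error 0.07), just short of the threshold (adjusted p = 0.058, edgeR), and without WT replicate 1 it was -0.25 (adjusted p = 0.031, edgeR).

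In WT retina the levels per kb spanned a wide range. Levels were counts divided by DESeq2 size factors and by kb of median transcript length (reads per kilobase, RPK). *Agpat3* was highest at 117911 ± 13206 RPK (SD, n = 4), followed by *Elovl4* at 23517 ± 1461 RPK and *Adipor1* at 21057 ± 1008 RPK, which overlapped. *Lpcat1* at 9676 ± 730 RPK and *Acsl6* at 9027 ± 490 RPK overlapped too. *Fads1* (4908 ± 173 RPK), *Elovl5* (4055 ± 373 RPK), *Fads2* (2623 ± 39.8 RPK), *Elovl2* (1150 ± 46.9 RPK) and *Mfsd2a* (176 ± 27.0 RPK) followed, each apart from the next. The rank of *Agpat3* rests on the length: its median transcript has 788 bases and its exons together 7790. With the union of exons, *Elovl4* came first at 14700 ± 913 RPK, before *Agpat3* at 11927 ± 1336 RPK and *Adipor1* at 11218 ± 537 RPK, the last pair overlapping, and *Elovl2* moved from rank 9 to rank 6. *Elovl4*, *Agpat3* and *Adipor1* were the 3 highest and *Mfsd2a* the lowest by both lengths.

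Ratios of genes that share a step were compared within each library, where library scaling has no part and the difference does not depend on length. The difference in means was tested by an exact two-sided permutation test over all 35 ways to place 7 libraries in groups of 4 and 3, with the smaller tail doubled. In that form the exact test cannot go below p = 0.0571, so no ratio can reach 0.05. The log2 ratio of *Elovl2* to *Elovl4* was -4.38, -4.41, -4.27 and -4.35 in WT and -3.01, -3.09 and -3.24 in SCA7, a difference of 1.24. The difference was 0.63 for *Elovl5* to *Elovl4*, 0.54 for *Fads2* to *Fads1*, 0.72 for *Lpcat1* to *Agpat3* and 1.14 for *Mfsd2a* to *Adipor1*. In each of the 5 ratios every SCA7 library lay above every WT library, and each had p = 0.0571 in the exact test (adjusted over the 5 ratios, 0.0571). Counting the placements with as large a difference in either direction, a form of the test added after the first p was seen, gave p = 0.0286 in the exact test for each. The direction shared by the 5 ratios follows from how they were written, each with the gene of the lower fold change as denominator, and ratios that share a gene are not independent. Each pair also holds a gene that passed the edgeR test, and no share over other pairs of genes was computed.

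**Figure D4:**
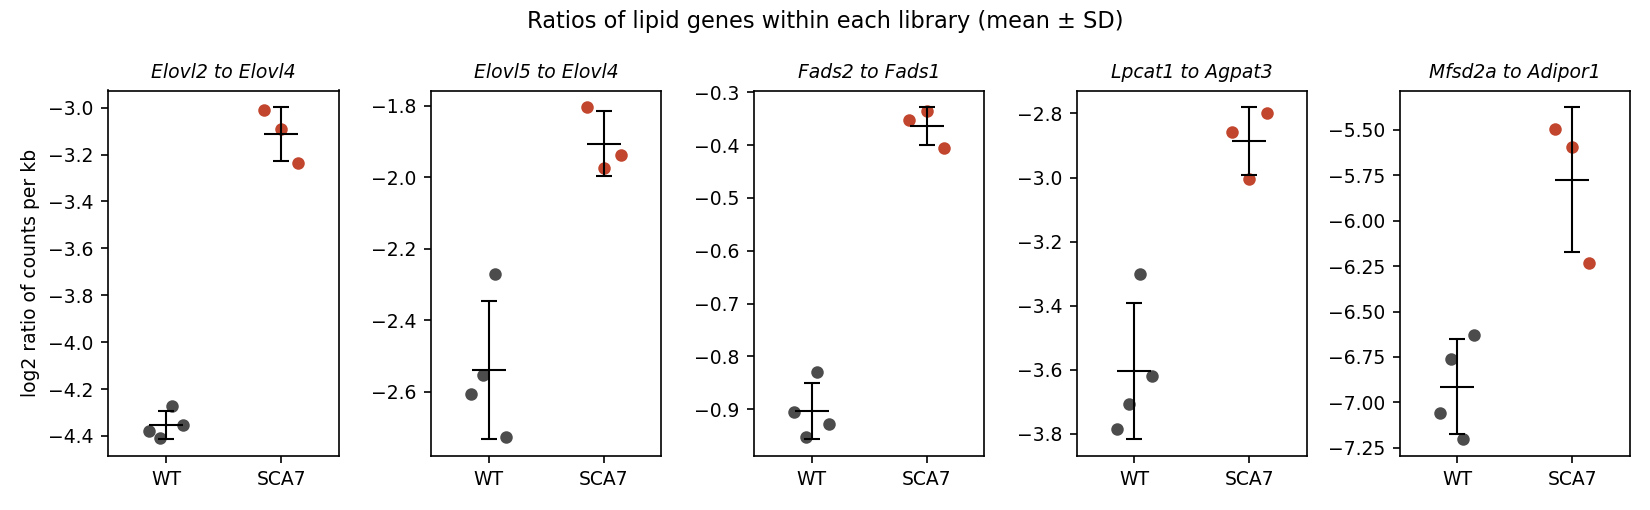
Log2 ratio of counts per kb (y axis, a scale of its own in each panel) of 5 pairs of lipid genes in each library, with a point per library and bars for mean ± SD (4 WT, 3 SCA7). In all 5 panels the SCA7 points lie above the WT points, from a difference of 0.54 for *Fads2* to *Fads1* to 1.24 for *Elovl2* to *Elovl4*.

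The lipid genes were also set against the cell type markers of the same library, as log2 CPM minus the mean log2 CPM of a marker list. The rod list itself differed by -1.23 between SCA7 and WT, and the Müller glia list by 0.13. Relative to the rod list *Adipor1* differed by 0.18, and its values overlapped between the genotypes. *Agpat3* differed by 0.31 without overlap and *Elovl4* by 0.79. The other 7 genes differed by 1.03 (*Lpcat1*) to 2.03 (*Elovl2*), all without overlap. On this scale a gene whose own level does not change rises as the rod list falls. *Acsl6*, with a log2 fold change of -0.03 between the genotypes, differed by 1.20, so lack of overlap here can come from the list alone. Relative to the Müller glia list *Elovl2* was higher by 0.67 and *Fads2* by 0.31, both without overlap. On the same scale *Adipor1* differed by -1.17, *Agpat3* by -1.05, *Elovl4* by -0.57, *Lpcat1* by -0.33 and *Fads1* by -0.23, all without overlap, and *Acsl6*, *Elovl5* and *Mfsd2a* overlapped. The share of all genes without overlap was not computed on either scale. The part of rods and Müller glia in these values was not tested.

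The wider pathway was followed in 9 lists with 71 genes, of which 68 were tested and *Elovl3*, *Acsbg1* and *Acsbg2* had too few counts. Of the 68, 3 were downregulated (4.41%) and 5 upregulated (7.35%), close to or under the shares over all genes, and the median log2 fold change was 0.04. Without FC limits 10 were lower (14.7%) and 14 higher (20.6%), beside 14.2% of all genes in each direction. The upregulated number was 3 without WT replicate 4 and also 3 without SCA7 replicate 1. None of the 3 other elongases tested passed the test, and of the other enzymes of the elongation cycle 1 of 6 did (16.7%, beside 14.2% of all genes higher), the dehydratase gene *Hacd4*, which went from 2.51 ± 0.437 CPM to 3.31 ± 0.0945 CPM (log2 fold change 0.40, adjusted p = 0.049, edgeR). Of 4 other desaturases *Fads3* was upregulated, at 12.4 to 13.8 CPM in WT and 16.8 to 19.6 CPM in SCA7 (log2 fold change 0.43, adjusted p = 0.0013, edgeR). *Scd2* was also higher, within the FC limits (log2 fold change 0.25, adjusted p = 0.047, edgeR), so that 25% of this list was upregulated and 50% higher, beside 7.47% and 14.2% of all genes.

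In the lists of acyl-CoA synthetases (8 tested) and acyltransferases (13 tested) no gene was downregulated or upregulated. Without the FC limits 2 synthetases were lower and 3 higher, and 1 acyltransferase was lower and 1 higher. These are 25% and 37.5% of the synthetases and 7.69% of the acyltransferases in each direction, beside 14.2% of all genes in each direction. Of 9 genes listed under fatty acid uptake and binding 1 was higher and 1 lower (11.1% each, beside 14.2% of all genes in each direction). The list also holds transporters of other lipids. *Fabp3* was lower within the FC limits (log2 fold change -0.37, adjusted p = 0.041, edgeR). *Fabp7*, for a binding protein of glia with affinity for DHA, rose from 1.28 to 2.20 CPM in the WT libraries to 3.71 to 5.53 CPM in SCA7 (log2 fold change 1.39, standard error 0.18, adjusted p = 1.4e-04, edgeR), while the summed level of the list overlapped between the genotypes at 272 to 329 CPM and 275 to 289 CPM.

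The peroxisomal steps, where the last shortening that yields DHA takes place, held 5 higher and no lower gene among 8 (62.5% higher, beside 14.2% of all genes), 1 of them past the FC limit (12.5%, beside 7.47%). *Hsd17b4*, for the multifunctional enzyme of peroxisomal oxidation, went from 64.1 ± 2.84 CPM to 84.5 ± 1.48 CPM (log2 fold change 0.40, adjusted p = 2.5e-04, edgeR). The median of the list was 0.19. Of the 7 phospholipases that can release fatty acids from membranes, 5 were lower and none higher, with a median of -0.34. These are 71.4% lower, beside 14.2% of all genes, and 28.6% downregulated, beside 7.91%. Both downregulated members were low: *Pla2g4b* had 2.89 to 3.49 CPM in WT and 1.78 to 2.30 CPM in SCA7 (log2 fold change -0.69, adjusted p = 0.0023, edgeR), and *Pla2g4c* had 19 to 42 counts in WT and 11 to 21 in SCA7 (log2 fold change -1.28, adjusted p = 0.0047, edgeR).

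Among 10 regulators of lipid genes 1 was downregulated (10%, beside 7.91% of all genes) and 1 upregulated (10%, beside 7.47%). *Ppara*, for a nuclear receptor that binds fatty acids, had 8.53 to 10.8 CPM in WT and 4.81 to 5.84 CPM in SCA7 (log2 fold change -0.77, standard error 0.11, adjusted p = 2.5e-04, edgeR). *Nr1h3*, for the liver X receptor alpha, which is active in macrophages, had 3.17 to 4.65 CPM in WT and 6.27 to 7.08 CPM in SCA7 (log2 fold change 0.72, adjusted p = 0.0011, edgeR). The microglial list, upregulated in all 12 genes (100%, beside 7.47% of all genes), had a summed level of 93.7 to 117 CPM in WT and 203 to 226 CPM in SCA7. Its part in the change of *Nr1h3* was not tested. The sterol regulators *Srebf1* and *Srebf2* did not pass the test, at 0.14 (adjusted p = 0.27, edgeR) and -0.09 (adjusted p = 0.38, edgeR).

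**Figure D5:**
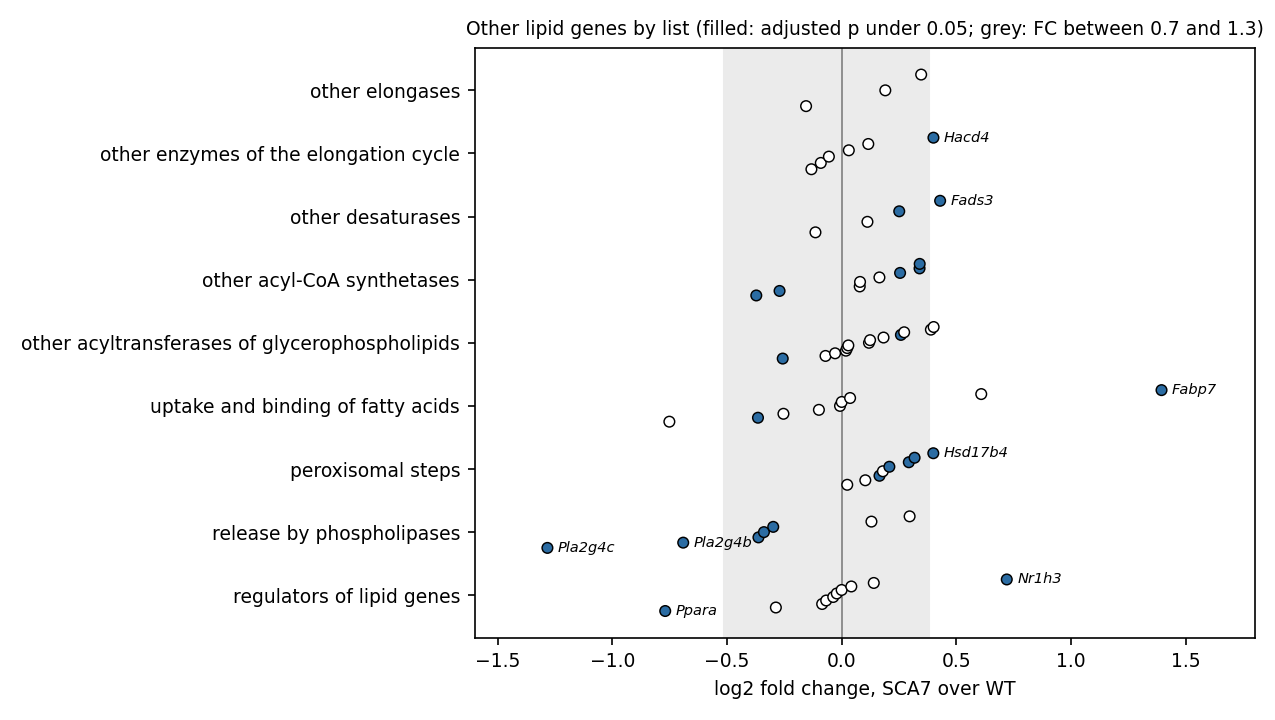
Log2 fold change (SCA7 over WT, x axis) of the 68 other lipid genes tested, one row per list and a point per gene, filled where the adjusted p is under 0.05, with the grey band at FC 0.7 to 1.3. The phospholipase row holds 5 filled points, all left of 0, and the peroxisomal row 5, all right of 0.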

How the data were processed

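Total RNA-seq libraries of retina from 4 WT and 3 SCA7 mice were analysed. The authors mapped single reads of 50 bases to mm10 with Tophat 2.0.14 and bowtie2 2.1.0, and counted them per gene of Ensembl release 90 with HTSeq 0.6.1. The deposited table holds raw counts, whole numbers without normalization, and the counting mode and strand setting are not given in the sources used here. Groups and replicate numbers came from the sample labels. The lipid genes and all lists were chosen with earlier results of these data known.

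Names, positions and lengths came from GENCODE M21 (GRCm38, the same assembly), which matched 52403 of 52550 genes. Genes were kept by filterByExpr grouped by genotype, and all 20128 were fitted with edgeR 4.0.16 (R 4.3.3). Alternatives used DESeq2 1.42.0 and limma 3.58.1, other scalings and count filters, the replicate number as a block, *Xist* as a covariate, other thresholds and each library left out. DESeq2 was the study's tool and is an alternative here. The log2 CPM set against marker lists had 0.01 CPM added, and the log2 ratios had nothing added. Log2 CPM for the *Xist* covariate and the replicate correlations used a prior count in edgeR. The steps were tested on simulated counts. Genes named are the 10, *Atxn7*, the called genes of each wider list (at most the 3 with the largest change) and fixed marker examples. Chosen after their values were seen were *Adipor2*, *Fabp3*, *Gnb3*, *Scd2*, *Srebf1*, *Srebf2* and *Ttr*. A single count equals 0.00972 to 0.0187 CPM, and counting error is only part of the spread between mice. Exact tests used scipy 1.17.1. No sequencing batch is named in the labels. The values of 1 marker gene are not reported here.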

Additional observations from a re-analysis of the deposited data

Results flagged for a closer look

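Of 27 sets of 4 WT values examined for a library far from the others, 1 stood out. *Adipor1* was at 877 CPM in WT replicate 3 and at 794 to 800 CPM in the other WT libraries, so that the gap to the nearest library took 0.921 of the whole range, above the 95% critical value of Dixon for 4 libraries. Chance alone gives about 1 such set in 20. The log2 fold change of *Adipor1* was between -1.14 and -0.95 with any single library left out.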

How the results depend on the processing

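The numbers of downregulated and upregulated genes among the 10 stayed at 2 and 2 in all 15 other fits, each library left out included, and at an adjusted p under 0.01, while dropping the FC limits gave 3 and 2, and *Adipor1*, *Agpat3*, *Elovl2*, *Fads2* and *Elovl4* kept their direction and an adjusted p under 0.05 in those fits. *Lpcat1* passed 0.05 with upper quartile scaling (adjusted p = 0.032, edgeR), with *Xist* as a covariate (0.020) and without WT replicate 1 (0.031). *Elovl5* passed it with any gene of at least 1 count kept (0.041), with *Xist* (0.043) and without WT replicate 3 (0.0091). In the wider lists, dropping the FC limits gave 10 lower and 14 higher genes, and leaving out a library gave 3 to 7 upregulated and 3 to 4 downregulated genes. The differences of 1.24, 0.63, 0.54, 0.72 and 1.14 in the 5 log2 ratios have p = 0.0571 in the exact test as first run and p = 0.0286 when splits are counted by the size of the difference, a definition chosen after seeing the data. With the union of exons as length the difference in share was 6.94 percentage points for *Elovl2* and 1.59 for *Elovl5*, and the WT levels were 93.6 RPK for *Mfsd2a*, 11218 for *Adipor1*, 2214 for *Acsl6*, 903 for *Fads1*, 699.6 for *Fads2*, 14700 for *Elovl4*, 762 for *Elovl5*, 11927 for *Agpat3* and 2885 for *Lpcat1*.

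The labels do not say that equal replicate numbers mark related libraries. The correlations of their deviations from the group means were 0.0096, 0.197 and 0.0787, and SCA7 replicates 1 and 3 correlated best with WT replicate 4. With the replicate block, which uses replicates 1 to 3 of both groups and so also drops WT replicate 4, 2 of the 10 were downregulated, 2 upregulated, 3 lower and 2 higher, 4 wider genes were downregulated and 4 upregulated, and the 5 ratios differed by 1.24, 0.57, 0.53, 0.71 and 1.23. Among the 10, depth was lowest for *Mfsd2a*, with 142 counts in its lowest library, and among the genes of the wider lists given with a fold change *Pla2g4c* had as few as 11.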
